A study of Danio rerio with 6 samples.

Results

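The genes described here encode the mechanotransduction apparatus of the hair cell, the sensory cell of the ear and the lateral line. They are 10 genes chosen by name: the channel genes tmc1, tmc2a and tmc2b, the channel partner genes lhfpl5a, lhfpl5b, tmie and cib2, the tip link cadherin genes cdh23 and pcdh15a, and tomt, whose product brings Tmc proteins to the hair bundle in zebrafish. Of these 10 names, 9 were found, on 10 gene IDs of the 24470 in the table of normalized counts. The gene tmc1 is spelled TMC1 there and was matched to the RefSeq gene tmc1 by its Entrez ID, cdh23 stands on 2 gene IDs, and tomt matched no row by name or ID and is not analysed here.

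Messenger RNA was sequenced from zebrafish larvae that all carried the transgene Tg(Brn3C:mGFP), which labels hair cells with a membrane-bound green fluorescent protein. The 3 libraries called 4-OI here came from larvae given 2.5 µM 4-octyl itaconate, an ester of the immune metabolite itaconate that enters cells, for 48 h from 3 days post fertilization. The 3 control libraries came from larvae of the same line, and both groups were collected at 5 days post fertilization. The series concerns the role of itaconate in neuromasts, the lateral line organs in which hair cells sit. The protocol text of the control samples repeats the 4-octyl itaconate treatment, so the groups rest on the titles and treatment tags, and neither a vehicle nor the larvae pooled per library are stated. No source says that the 3 libraries of a group are separate clutches. The p-values therefore describe variation among these libraries, part of which may be technical. The table held 18017272 to 23507208 reads per 4-OI library and 14763897 to 21096650 per control library.

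When the hair bundle is deflected, tip links made of cadherin 23 and protocadherin 15 pull on a channel at the lower end of the link. Tmc proteins form the pore of that channel. Lhfpl5, Tmie and Cib2 bind the pore or the link, and loss of any of them impairs mechanotransduction in hair cells of fish or mice. In zebrafish, lhfpl5a serves hair cells of the ear and lhfpl5b those of the lateral line, while tmc2b is the channel gene on which many lateral line hair cells depend. In bulk samples of larvae, fewer cells of a type and less RNA per cell cannot be told apart, and several of these genes, cib2 and the cadherins among them, are also transcribed outside hair cells.

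The channel partner genes lhfpl5b, tmie and cib2 were several-fold lower in 4-OI larvae, whereas no channel or tip link gene that could be tested passed the threshold. The only channel gene tested, tmc2a, had 48 reads in the 4-OI group and 21 in the control group. The tip link gene cdh23 had 41 and 57, against 131 and 460 for tmie, the scarcest of the partners that fell. The other tip link gene, pcdh15a, had 154 and 108, more than tmie in the 4-OI group, and did not pass either. The part of read depth in this contrast was not tested. The test was limma on log2(normalized count + 1), adjusted by the Benjamini-Hochberg method over the 20352 genes whose mean reached 10 normalized counts, with an adjusted p of 0.05 as the threshold. Of the 10 gene IDs, 6 could be tested: 3 were lower, 0 were higher and 3 did not pass. Over all tested genes 69.3% passed in either direction, 35.0% higher and 34.3% lower in 4-OI larvae, so a change in a single gene was the usual outcome in these larvae. The other 4 gene IDs, those of tmc1, tmc2b, lhfpl5a and one of cdh23, had means under 10 and are described by their reads. The median log2 fold change was -1.001 over the 6 tested members, against 0.01 over all tested genes. Libraries of the groups did not overlap for 6 of the 10 gene IDs, 1 with 4-OI above control and 5 with 4-OI below. Among all tested genes 74.1% did not overlap, 37.4% with 4-OI above and 36.8% with 4-OI below, and among the 4099 untested genes with at least 1 read 34.0% did not. The summed level of the members was 633, 457 and 501 normalized counts in 4-OI libraries, against 1963, 1554 and 1717 in controls. Most of that sum came from lhfpl5b (19.7% to 29.0% in 4-OI and 40.2% to 52.2% in control libraries) and cib2 (44.8% to 45.7% and 34.0% to 43.4%). Its fall therefore mainly restates the falls of these genes.

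**Figure D1:**
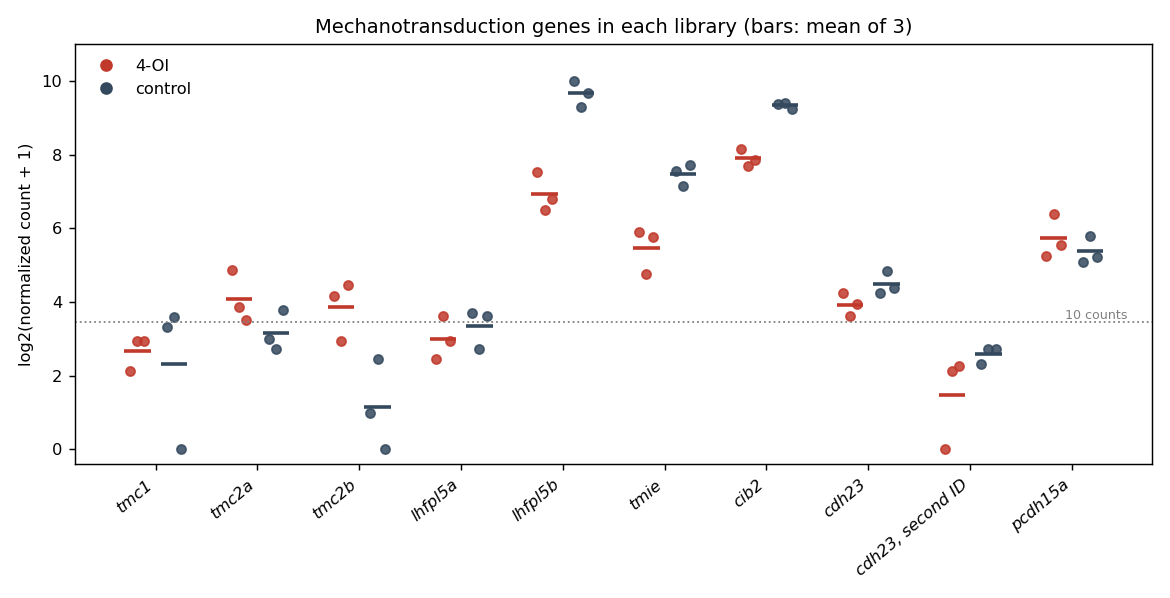
Level of each mechanotransduction gene ID as log2(normalized count + 1), with 4-OI libraries in red left of control libraries in dark blue and bars for the mean of 3. The groups stand well apart for lhfpl5b, tmie and cib2, and the highest value of any of the 3 tmc genes is 28.0 normalized counts, of tmc2a.

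The channel genes were counted at the edge of detection. For tmc2b (ENSDARG00000030311), normalized counts were 16.8, 6.75 and 21.0 in 4-OI replicates 1, 2 and 3, against 1.00, 4.44 and 0 in control replicates 1, 2 and 3. All 3 4-OI libraries lay above all 3 controls. These values rest on 43 reads in the 4-OI group and 5 reads in the control group, a read ratio of 7.93 with a 95% interval of 3.15 to 25.6 from counting alone (Clopper-Pearson, which covers counting error only). The 0 in control replicate 3 allows up to 3 reads, or 4.23 normalized counts. The exact two-sided permutation test over samples gave p = 0.1, the smallest that 3 against 3 libraries allow. Where the filter on low values was dropped, limma gave tmc2b a log2 fold change of 2.71 (SE 0.74) and an adjusted p of 0.0111, and the gene then passed as higher. Without 4-OI replicate 3 that adjusted p was 0.0548 (log2 fold change 2.41).

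Its paralog tmc2a (ENSDARG00000033104), which forms the channel with tmc1 and tmc2b in the zebrafish ear, stood at 28.0, 13.5 and 10.5 normalized counts in 4-OI libraries, against 7.02, 5.56 and 12.7 in controls. The groups overlapped, since control replicate 3 lay above 4-OI replicate 3. The log2 fold change of tmc2a was 0.92 (95% interval -0.34 to 2.17) and did not pass (limma adjusted p = 0.167). Without 4-OI replicate 1, the highest library, it was 0.53 (limma adjusted p = 0.444 from 5 libraries).

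The counterpart of the mammalian cochlear channel gene, tmc1 (ENSDARG00000056386), had 3, 6 and 7 reads in 4-OI libraries, against 9, 10 and 0 reads in controls. Its groups overlapped completely, with the lowest and the highest values both in controls. The mean was 5.60 ± 1.94 normalized counts in 4-OI larvae and 6.71 ± 5.91 in controls (SD, n = 3 each), while the mean of log2 values differed by 0.37 in the other direction. With no filter the limma adjusted p was 0.751, and without control replicate 3, the library at 0, the log2 difference was -0.79. The RefSeq table of assembly GRCz12tu places tmc1 within 10 kb of tmc2b, with the span of tmc1 overlapping zfand5a. How reads of overlapping genes were assigned is not stated, so the reads of tmc1 are uncertain.

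No ratio between tmc genes within a library separated the groups. As log2 ratios of tmc2a over tmc2b, the values were 0.70, 0.90 and -0.94 in 4-OI libraries, against 2.001, 0.27 and 3.77 in controls. The difference, 4-OI minus control, was -1.79 (exact two-sided permutation p = 0.3, and 0.35 adjusted over the 7 gene pairs compared). The ratio of tmc1 to tmc2b was -2.03, 0 and -1.52 in 4-OI libraries, against 2.32, 1.15 and 0 in controls. It differed by -2.34 (exact permutation p = 0.2, adjusted 0.28), and the groups met only at 0. In control replicate 3 both tmc1 and tmc2b had 0 reads, so that 0 rests on the added 1 alone. The 3.77 of tmc2a over tmc2b in that library rests on 0 reads of tmc2b too. The ratio of tmc1 to tmc2a differed by -0.55 (exact permutation p = 0.7). With 3 against 3 libraries no pair can go below 0.1. Without 4-OI replicate 1, control replicate 1 or control replicate 2 the sign of the tmc1 to tmc2a difference turned (0.11, 0.04 and 0.32).

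Among the 6 tested members, lhfpl5b (ENSDARG00000056458) had the largest log2 fold change. It encodes a tetraspan membrane protein that links protocadherin 15 to the channel. Its normalized counts were 184, 90.0 and 110 in 4-OI libraries, against 1026, 626 and 819 in controls. Every 4-OI library lay several-fold below every control library. The mean was 128 ± 49.5 in 4-OI larvae and 823 ± 200.1 in controls (SD, n = 3 each), 6.44-fold lower (log2 fold change -2.72, SE 0.29, limma adjusted p = 4.63e-05). In reads this is 359 in the 4-OI group against 2167 in the control group.

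The paralog lhfpl5a (ENSDARG00000045023) was far scarcer in reads, with 4, 10 and 7 in 4-OI libraries, against 12, 5 and 8 in controls. The groups overlapped, and the mean was 7.47 ± 3.45 normalized counts in 4-OI larvae and 9.62 ± 3.54 in controls (SD, n = 3 each). Its read ratio was 0.774 with a counting interval of 0.412 to 1.44, which does not cover variation between libraries. The log2 ratio of lhfpl5a to lhfpl5b was -5.07, -2.89 and -3.85 in 4-OI libraries, against -6.30, -6.58 and -6.06 in controls. The groups did not overlap and differed by 2.37 (exact two-sided permutation p = 0.1, the smallest possible; 0.233 adjusted over the 7 pairs). Reads were not compared between the genes per length, so the ratio says only how it shifted between groups.

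Both lhfpl5 genes have an srpk1 gene, which encodes a kinase of splicing factors, within 10 kb in RefSeq assembly GRCz12tu. Next to lhfpl5b, srpk1a was lower in 4-OI larvae by a log2 fold change of -1.21 (SE 0.15, limma adjusted p = 0.00011). Next to lhfpl5a, srpk1b was higher by 1.47 (limma adjusted p = 0.00184). The span of lhfpl5b overlaps that of cpne5a, which stood at 4.77 to 22.5 normalized counts in 4-OI and 14.1 to 32.2 in control libraries, well under the counts of lhfpl5b.

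The gene tmie (ENSDARG00000069423) encodes a small membrane protein that holds Tmc proteins in the hair bundle of zebrafish. Its normalized counts were 58.3, 25.9 and 53.5 in 4-OI libraries, against 186, 140.0 and 209 in controls. The groups did not overlap, and 4-OI replicate 2 was the lowest. It was 3.89-fold lower (limma adjusted p = 0.000778, log2 fold change -1.999, SE 0.34), and without 4-OI replicate 2 the log2 fold change was -1.64 (limma adjusted p = 0.00108). In GRCz12tu its span overlaps a protein-coding gene with no name beyond its locus number, for which no row was matched, so shared reads cannot be told apart.

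Transcripts of cib2 (ENSDARG00000102820), for a calcium- and integrin-binding protein that sits under the Tmc pore, were the most evenly counted of the members. They stood at 284, 206 and 229 normalized counts in 4-OI libraries, against 667, 674 and 603 in controls. All 4-OI libraries lay under all controls, and the coefficient of variation was 16.7% in 4-OI and 6.02% in control libraries. The gene was 2.71-fold lower (log2 fold change -1.44, SE 0.17, limma adjusted p = 8.87e-05). The span of cib2 overlaps lrrc61 in GRCz12tu, a leucine-rich repeat gene that was itself lower, at 28.6 to 42.6 normalized counts in 4-OI and 77.8 to 84.2 in control libraries.

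The related gene cib3, whose product also binds Tmc proteins, held 7 reads in the 4-OI group and 1 read in the control group. That read ratio of 6.45 has a counting interval of 0.829 to 291. The log2 ratio of cib2 to cib3 was 5.70, 6.61 and 6.31 in 4-OI libraries, against 8.38, 9.40 and 9.24 in controls. It differed by -2.80 with no overlap (exact permutation p = 0.1, the smallest possible; adjusted 0.233), with cib3 at 0 reads in control replicates 2 and 3.

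**Figure D2:**
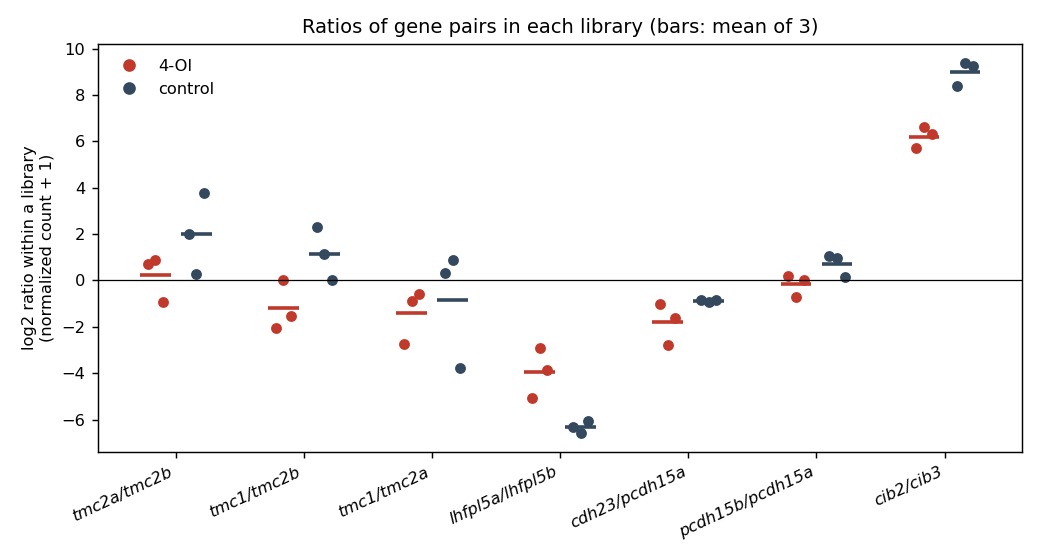
Log2 ratio of the paired genes within each library, from normalized counts + 1, with 4-OI libraries in red left of control libraries in dark blue and bars for the mean of 3. The groups stand apart for lhfpl5a over lhfpl5b, cdh23 over pcdh15a and cib2 over cib3, and overlap or meet for the other 4 pairs.

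No tip link gene passed the test. For cdh23 (ENSDARG00000007561), which forms the upper part of the link, normalized counts were 17.9, 11.2 and 14.3 in 4-OI libraries, against 18.05, 27.8 and 19.7 in controls. The groups only just failed to overlap, with 4-OI replicate 1 beside control replicate 1. The log2 fold change was -0.56 (95% interval -1.48 to 0.36) and did not pass (limma adjusted p = 0.245). The other gene ID named cdh23 (ENSDARG00000094454), which carries no Entrez ID, had 0, 3 and 4 reads in 4-OI libraries, against 4, 5 and 4 in controls. Both cdh23 values are uncertain, because one gene's reads may be split over these IDs. The span of cdh23 also overlaps vsir, an immune checkpoint gene with 144 to 316 normalized counts in 4-OI and 93.2 to 116 in control libraries.

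Protocadherin 15, the lower part of the link, is encoded by pcdh15a (ENSDARG00000098257) in zebrafish hair cells. Its normalized counts were 37.0, 82.1 and 45.8 in 4-OI libraries, against 33.1, 54.4 and 36.6 in controls. The groups overlapped, and 4-OI replicate 2 was the highest. The log2 fold change was 0.35 (95% interval -0.50 to 1.20, limma adjusted p = 0.42), and without 4-OI replicate 2 it was 0.03. The interval leaves room for a rise of more than 1 on the log2 scale and for a fall of 0.50. The span of pcdh15a overlaps 4 long noncoding genes in GRCz12tu, for which no row was matched.

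The paralog pcdh15b (ENSDARG00000008127), known from the zebrafish retina, stood at 42.6, 49.5 and 46.8 normalized counts in 4-OI libraries, against 70.2, 108 and 40.9 in controls. Control replicate 3 lay under every 4-OI library, and the log2 fold change of -0.54 did not pass (limma adjusted p = 0.212). Without control replicate 3 it was -0.90 and passed (limma adjusted p = 0.041). The log2 ratio of cdh23 to pcdh15a, the partners in the link, was -1.005, -2.76 and -1.61 in 4-OI libraries, against -0.84, -0.95 and -0.86 in controls. It differed by -0.91 with no overlap (exact permutation p = 0.1, the smallest possible; adjusted 0.233), and by -0.43 without 4-OI replicate 2. That of pcdh15b to pcdh15a differed by -0.89 with overlap (exact permutation p = 0.2).

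Genes that anchor the tip link, carry cargo into the bundle or handle its calcium were lower in 12 of 24 tested cases. The list held 31 names, of which 28 were found and 24 tested: 2 were higher and 10 did not pass, with a median log2 fold change of -1.14. Among all tested genes 34.3% were lower. Among the Usher anchors at the upper end of the tip link, ush1ga, for the scaffold Sans, was 10.7-fold lower. It stood at 17.9, 16.9 and 11.5 normalized counts in 4-OI libraries, against 215, 129 and 154 in controls, with no overlap (limma adjusted p = 2.44e-05). By contrast ush1c, for the scaffold harmonin that binds cadherin 23, was 1.47-fold higher (limma adjusted p = 0.028, log2 fold change 0.55). Its values were 259, 210 and 215 in 4-OI libraries, against 152, 141 and 173 in controls, with no overlap. That call was lost under edgeR and DESeq2 on the reads of 5 libraries (adjusted p = 0.0677 and 0.0953), with a block for the replicate number (limma adjusted p = 0.0548) and without control replicate 1 or control replicate 2 (limma adjusted p = 0.0774 and 0.0891).

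Myosin VIIa, the motor that holds the upper link under tension, has the genes myo7aa and myo7ab in the list. The hair cell gene myo7aa, which is disrupted in the mariner mutant, averaged 151 ± 11.4 normalized counts in 4-OI larvae and 143 ± 50.9 in controls (SD, n = 3 each; limma adjusted p = 0.656). Its paralog myo7ab was 2.64-fold lower (log2 fold change -1.39, SE 0.31, limma adjusted p = 0.00341).

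The largest falls in the list were those of whrnb and grxcr1a. Transcripts of whrnb, for the scaffold whirlin of stereocilia and photoreceptors, were 15.3-fold lower, at 17.9, 13.5 and 8.59 normalized counts in 4-OI libraries, against 235, 189 and 187 in controls (limma adjusted p = 1.16e-05). Those of grxcr1a, for a glutaredoxin-like protein that shapes the bundle, were 12.2-fold lower, at 74.0, 27.0 and 16.2, against 462, 548 and 426 in controls (limma adjusted p = 0.0001). The other whirlin gene, whrna, was 6.19-fold lower and adgrv1, for the ankle link receptor that binds whirlin, 3.12-fold lower. The motor gene myo3a, which carries cargo to stereocilia tips, was 5.48-fold lower.

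Genes that remove or bind the calcium entering through the channel also fell, although neurons use them too. The plasma membrane calcium pump genes atp2b1a and atp2b2 were 3.51-fold and 5.43-fold lower, and the calmodulin gene calm1a was 3.59-fold lower (limma adjusted p of 7.21e-06 to 2.56e-05). The tail-anchor insertion gene get1 and the membrane protein gene tmem132e were 3.59-fold and 4.13-fold lower. The methyltransferase gene comtb, a relative of tomt by sequence, was 2.44-fold higher (limma adjusted p = 0.00781, log2 fold change 1.31). In the list, the found genes under the filter were cib3, clrn1, loxhd1a and pdzd7a. The Usher gene clrn1, for clarin, had 16 reads in the 4-OI group and 2 in the control group (read ratio 7.37, counting interval 1.73 to 66.1). The stereocilia gene loxhd1a had 5 reads in the 4-OI group and 32 in the control group (read ratio 0.144, counting interval 0.0438 to 0.372), of which 21 were in control replicate 1. The Usher-related scaffold gene pdzd7a had 12 and 6 reads in 4-OI and control libraries (read ratio 1.84, counting interval 0.64 to 5.99).

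**Figure D3:**
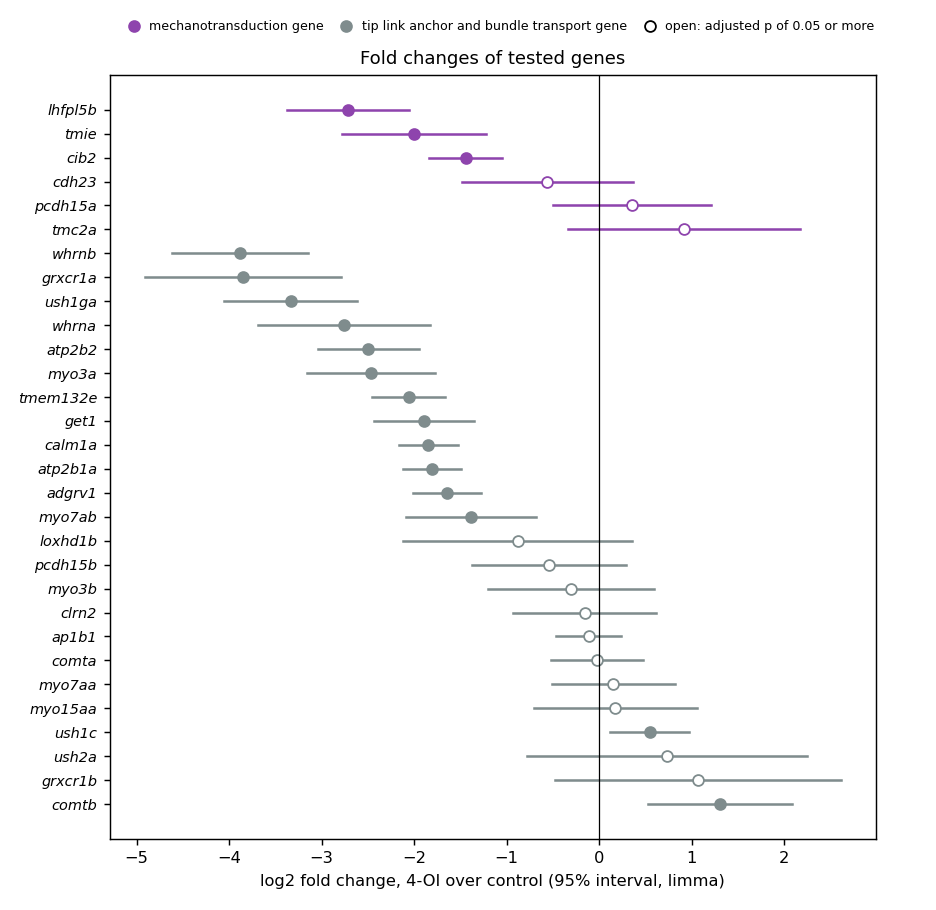
Log2 fold change of 4-OI over control with its 95% interval from limma, for the 6 tested mechanotransduction genes in purple and 24 tip link anchor and bundle transport genes in grey, with open circles where the adjusted p was 0.05 or more. The falls of lhfpl5b, tmie and cib2 lie within the range of the grey genes that fell, of which whrnb and grxcr1a reach furthest.

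Relatives of the members that are not part of the hair cell channel went both ways, beside 35.0% higher and 34.3% lower among all tested genes. With 4 and 6 tested, their counts say nothing particular about these relatives. Of 5 other tmc genes found, 4 were tested, and tmc4 and tmc5, which are known from epithelia, were 2.04-fold and 2.28-fold higher (limma adjusted p = 0.0295 and 0.00132), with 0 lower. After upper-quartile scaling 4 of the 4 were higher, and without 4-OI replicate 1, 4-OI replicate 2 or control replicate 2 it was 1. The call of tmc4 was also lost under edgeR, DESeq2, quantile normalization and without control replicate 1 (adjusted p of 0.0857 to 0.107). Of the other lhfpl and cib genes, 6 gene IDs were tested: lhfpl2b, lhfpl6 and cib1 were higher, lhfpl3 and lhfpl4b were lower and lhfpl2a did not pass. The call of lhfpl6, 1.53-fold higher (limma adjusted p = 0.0445), was lost in 9 of 17 alternatives (adjusted p up to 0.156), among them edgeR and the replicate block. The brain gene lhfpl3 fell most, 10.1-fold, to 434, 343 and 357 normalized counts in 4-OI libraries, against 3729, 4000 and 3752 in controls (limma adjusted p = 8.76e-07). The paralog lhfpl4b, whose mammalian counterpart clusters inhibitory receptors at synapses, was 5.44-fold lower, and cib1, a broadly transcribed gene, was 4.77-fold higher.

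Marker lists place these values among the larva's tissues. Of 31 hair cell markers tested, 14 were higher, 12 lower and 5 did not pass, beside 35.0% higher and 34.3% lower among all tested genes. Their summed level was 18914, 12812 and 13681 normalized counts in 4-OI replicates 1, 2 and 3, against 16537 to 19806 in control libraries. That sum mixes large opposite changes of abundant markers. In 4-OI larvae calb2a and calb2b were 5.56-fold and 8.89-fold lower, while pvalb8 and s100t were 9.88-fold and 7.81-fold higher. Scarcer markers, such as otofa (7.80-fold lower), its paralog otofb (7.41-fold higher) and myo6b (4.00-fold higher), weigh less in it. The sum is therefore no measure of how many hair cells were present. Nor is every marker confined to hair cells: the list includes atp2b1a, a pump gene that neurons use too. The part of other tissues in the falls of calb2a and calb2b was not tested. After quantile normalization 11 hair cell markers were higher and 15 lower. Inner ear markers, mostly otolith and tectorial genes, were higher in 9 of 11 cases and lower in 0. Their sum ranged from 7552 to 11817 in 4-OI libraries and from 1903 to 2140 in controls. Neuromast support markers were higher in 9 of 13 cases and lower in 4.

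Neuron and eye markers fell in the same larvae. Neuron markers were lower in 19 of 21 cases, with a median log2 fold change of -3.11 and a sum of 14988, 21506 and 12297 normalized counts in 4-OI replicates 1, 2 and 3, against 133629 to 146253 in controls. Eye markers were lower in 17 of 26 cases and higher in 1, with a median of -2.40. Their sum was 93460, 21147 and 36881 in 4-OI replicates 1, 2 and 3, against 201266 to 293206 in controls. Among the 4-OI libraries lhfpl5b, tmie and cib2 were highest in replicate 1 and lowest in replicate 2. The sums of eye, hair cell, neuromast support, and liver and gut markers were also highest in replicate 1 and lowest in replicate 2. So was the sum of the tip link anchor list. The neuron sum was highest in replicate 2, and the inner ear, skeletal muscle, and other lhfpl and cib sums in replicate 3. The sum of the other tmc genes was lowest in replicate 3. Some lists of unlike tissues thus share the order of lhfpl5b, tmie and cib2. How many of all tested genes share it was not counted, so the match points to no tissue. That order was not general among the other members: the tested cdh23 ID kept it, while pcdh15a and lhfpl5a were highest in replicate 2. The scarce tmc1, tmc2a, tmc2b and the untested cdh23 ID did not keep it. Skeletal muscle markers were higher in 21 of 23 cases, with a median of 2.96. They made up 13.9% to 16.5% of all normalized counts in 4-OI libraries and 2.08% to 2.15% in controls. Liver and gut markers were higher in 20 of 20 cases, with a median of 5.20. Their sum was 494171 to 554916 in 4-OI and 10483 to 13799 in control libraries. No list had a marker at 0 in every library of a group. The part of these tissues in the falls of lhfpl5b, tmie and cib2, or in those of the tip link anchor list, was not tested.

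**Figure D4:**
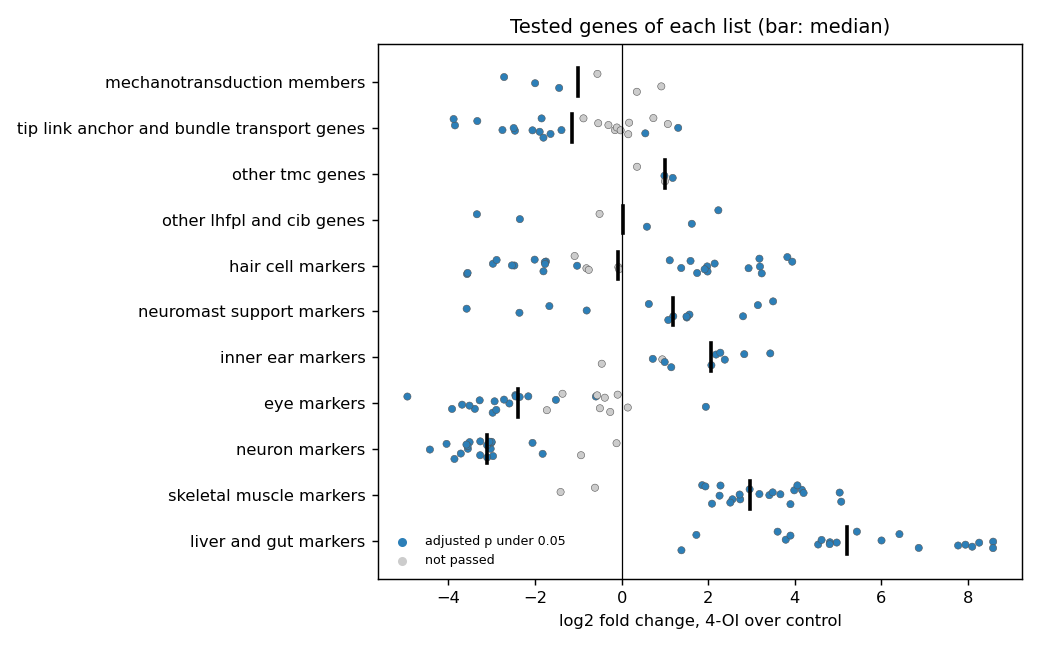
Log2 fold change of 4-OI over control for each tested gene of each list, in blue where the adjusted p was under 0.05 and in grey where it was not, with a black bar at the list's median. The medians are -1.001 for mechanotransduction genes, -1.14 for tip link anchor genes, -2.40 for eye markers and -3.11 for neuron markers. They are 2.96 for skeletal muscle markers and 5.20 for liver and gut markers, while hair cell markers spread to both sides of 0.

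Across the 6 libraries the levels of lhfpl5b, tmie and cib2 were correlated with those of many genes, and the levels of tmc2a, cdh23 and pcdh15a with those of few. The most alike were sought among tested genes that are not members and have a symbol other than a clone or locus name. In that set the genes most like lhfpl5b were suco, ZNF335 and znf414 (Pearson r of 0.9985 to 0.9994 over 6 libraries). Of all tested genes, 15.3% had an r above 0.95 with lhfpl5b. Those most like tmie were c6, jag2b and med19a (0.9966 to 0.9997), with 5.46% of genes above 0.95. Those most like cib2 were MAF1, cuedc2 and prph2b (0.9992 to 0.9998), with 17.2% above 0.95. For tmc2a they were p2rx3a, nxpe3 and cep41 (0.9887 to 0.9922), with 0.182% above 0.95. For cdh23 they were mt2, xpa and mzt2b (0.9888 to 0.9953), with 0.241% above 0.95, and for pcdh15a camk2a, rabgef1l and pde11a (0.9694 to 0.9941), with 0.0393%. Each share counts the member itself. These r values include the difference between groups and are a description. Since 69.3% of all tested genes passed the test, a member that passed shares its group difference with many genes. The contrast between many and few therefore largely repeats which members passed.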

How the data were processed

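The authors deposited a signal per gene and library: normalized counts, in which reads were divided by 1 factor per library. The submitters' processing notes name STAR 2.7.10a, Salmon 1.9.0, fastp 0.23.2, bcl2fastq 2.20.0.422, DESeq2 and build GRCz11, without roles or filters. Groups came from the sample titles, since the treatment protocol reads alike in all labels. Dividing each library by its smallest step gave whole reads (100% of values within 0.01), 18017272 to 23507208 in 4-OI and 14763897 to 21096650 in control libraries. Log2 values correlated at 0.928 to 0.974 within groups and at 0.672 to 0.731 between them (Pearson, across genes).

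A filter (mean of 10 or more over 6 libraries) kept 20352 of 24470 genes. These entered limma 3.58.1 (R 4.3.3, two-sided, intensity trend, no covariate) on the scale log2(normalized count + 1), which understates changes of low genes. Folds are ratios of group means. Gene pairs were tested by exact permutation over samples. The members and lists were chosen with earlier results of these data known. Genes named are all members, any gene of the lists of tip link anchors and relatives, and for each tested member the 3 most correlated genes. Those 3 were ranked among tested genes that are not members and have a symbol other than a clone or locus name. A few hair cell markers were named after their values were seen. Neighbouring and overlapping genes were named after their values were seen. Alternatives covered pseudocounts, filters, scalings, the intensity trend, leaving out libraries singly, blocking by replicate number, and edgeR 4.0.16 and DESeq2 1.42.0 on recovered reads. The count tests used 5 libraries, because the step of control replicate 1 is too near 1 to pass the check set for recovered reads. Read counts, read ratios and counting intervals do include the recovered reads of control replicate 1. The fit was also run on simulated data in which few genes were changed. Most genes passed in the real data, so that run does not vouch for the calls here. Symbols were looked up in RefSeq, from which only neighbour relations were taken, since its assembly differs. Sequences are not shown.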

Additional observations from a re-analysis of the deposited data

How the results depend on the processing

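The falls of lhfpl5b, tmie and cib2 passed under all 17 alternatives, with log2 fold changes of -3.01 to -2.39, -2.21 to -1.64 and -1.57 to -1.12. The TMM, upper-quartile and quantile scalings among them assume that most genes, or part of their distribution, stay alike between groups. Since 69.3% of tested genes passed, that assumption is uncertain here, and no scaling free of it was tried. The values of tmc2a, cdh23 and pcdh15a passed under none of 16 and kept their sign (0.47 to 1.22, -0.97 to -0.25 and 0.03 to 0.67). With no filter, 1 member, tmc2b, was higher (0 otherwise), and 2 eye markers were. Without a library, chosen after seeing the data, tmc1 with no filter ranged from -0.79 to 1.01. Upper-quartile scaling moved the median of all tested genes to 0.33, against 0.01, and a minimum mean of 50 moved it to -0.089. That minimum left 8 hair cell and 4 inner ear markers higher and 1 lhfpl or cib gene lower, since fewer genes were tested. Upper-quartile scaling made 4 other tmc genes higher. Genes higher in the tip link anchor list were 1 under edgeR and DESeq2, both on fewer samples. Leaving out each library gave 1 to 3 of them, 1 to 2 other tmc genes, 0 to 2 muscle markers lower, and a tmc1 to tmc2a difference of -2.01 to 0.32. Quantile normalization made 1 muscle marker lower. With the replicate block, 1 gene of the anchor list was higher and 1 muscle marker lower. Same-numbered libraries did not deviate together (r of -0.0212, -0.0574 and 0.0497). These values show no pairing by number, but they could miss a weak one. The cause of the other shifts was not tested. Depth limits what can be said of tmc1, tmc2a, tmc2b, lhfpl5a, cib3 and the untested cdh23 ID. Each had 25 reads or fewer in at least 1 group, while tmc2a and tmc2b had 48 and 43 in the 4-OI group.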

Other observations

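Genes within 10 kb of a member, or overlapping it, in RefSeq assembly GRCz12tu were looked at after the members' values were seen. Of 14 such neighbours that were tested and are not members, 6 were higher, 3 lower and 5 did not pass, while among all tested genes 35.0% were higher and 34.3% lower, so the count says nothing particular about neighbours. Next to pcdh15a, which did not pass, ipmka, for an inositol polyphosphate kinase, stood at 23.5, 36.0 and 22.9 normalized counts in 4-OI libraries, against 0, 0 and 1.41 in controls (limma adjusted p = 0.000353). Beside cdh23, which did not pass either, the calpain gene capn2a was higher by a log2 fold change of 2.33 (SE 0.17, limma adjusted p = 5.26e-06). Near tomt, the Wnt modulator gene sfrp2l stood at 6.73, 3.37 and 0.955 normalized counts in 4-OI libraries, against 17.0, 16.7 and 32.4 in controls (log2 fold change -2.44, SE 0.65, limma adjusted p = 0.00868).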
